A study of Gallus gallus with 24 samples.

Results

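Solute carriers are membrane proteins that move sugars, amino acids, peptides, ions, vitamins and metabolites across the plasma membrane and the membranes of organelles. In the small intestine, carriers in the brush border take nutrients up from the lumen, often together with sodium or protons, and other carriers pass them on to the blood. Members of the same superfamily in mitochondria, the Golgi apparatus and lysosomes serve the metabolism of every cell.

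The carriers described here were the genes on no sex chromosome whose symbol begins with SLC and a digit and whose mean level was at least 5 FPKM over the 24 birds, leaving out SLC10A2, SLC51A, SLC51B, SLC9A3, SLC11A2 and SLC40A1. FPKM counts the fragments of a gene per kilobase of its length, scaled to the reads of the library. Of 25339 genes in the table, 150 met this rule. The members were chosen by their mean FPKM over all birds, so their levels are given as a description, and the differences between groups were not part of the rule. Just inside the limit were SLC38A7 at 5.15 FPKM and SLC25A42 at 5.27 FPKM, and just outside it were SLC7A3 at 4.99 FPKM and SLC27A3 at 4.98 FPKM. Of 275 genes with such symbols, 14 lay on the Z or W chromosome and 106 of the others were below the limit. All 150 members also passed the filter of a mean of at least 0.1 FPKM that 17288 genes passed for testing.

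The RNA came from the ileum of broiler chickens of the Arbor Acres strain at 14 days of age, with 6 birds in each of 4 groups and 1 bird from each cage. SPM birds received a diet with 300 mg/kg magnolol and SPH birds a diet with 300 mg/kg honokiol, and both were given Salmonella pullorum by mouth at 5 days of age. SP birds had the same challenge on the basal diet, and CTL birds had the basal diet with sterile buffer in its place. Magnolol and honokiol are biphenols of magnolia bark, isomers that differ in where the hydroxyl and allyl groups sit on the rings. The CTL cages stood apart from the challenged cages, so challenge and place cannot be told apart in any comparison with CTL birds. The p-values measure the spread between these birds.

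The libraries held 14393822 to 19435410 reads assigned to genes, as recovered from the FPKM values. Enterocyte markers, which check the labelled tissue, summed to between 12204 and 28483 FPKM per bird, with APOA1, an apolipoprotein of chylomicrons, highest at a mean of 5146 FPKM. Transcripts of the W chromosome, which only hens carry, were present in 4 SPM, 3 SPH, 3 SP and 6 CTL birds. Every comparison with CTL birds therefore also differs in the share of hens. In bulk RNA of this kind, fewer cells of a type and less RNA per cell cannot be told apart.

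The members took between 1.61% and 2.23% of the reads of a bird. Their median share was 2.01% in SPM birds, 1.87% in SPH birds, 1.82% in SP birds and 1.86% in CTL birds, and the ranges of the 4 groups overlapped. A few genes carried much of this expression, since the 10 highest members of the set held 40.9% to 50.04% of the summed member FPKM. The highest was SLC5A1, the sodium-glucose cotransporter SGLT1 of the brush border, at a mean of 722 FPKM. SLC25A6, an ADP/ATP carrier of the inner mitochondrial membrane, followed at 663 FPKM, and SLC6A19, the sodium-coupled carrier of neutral amino acids, at 364 FPKM. The median member stood at 20.9 FPKM, with 11 members at 100 FPKM or more, 30 at 50 FPKM or more and 35 under 10 FPKM. Between 18 and 58720 reads stood behind a member in a bird, so the low members in single birds rest on few reads.

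**Figure D1:**
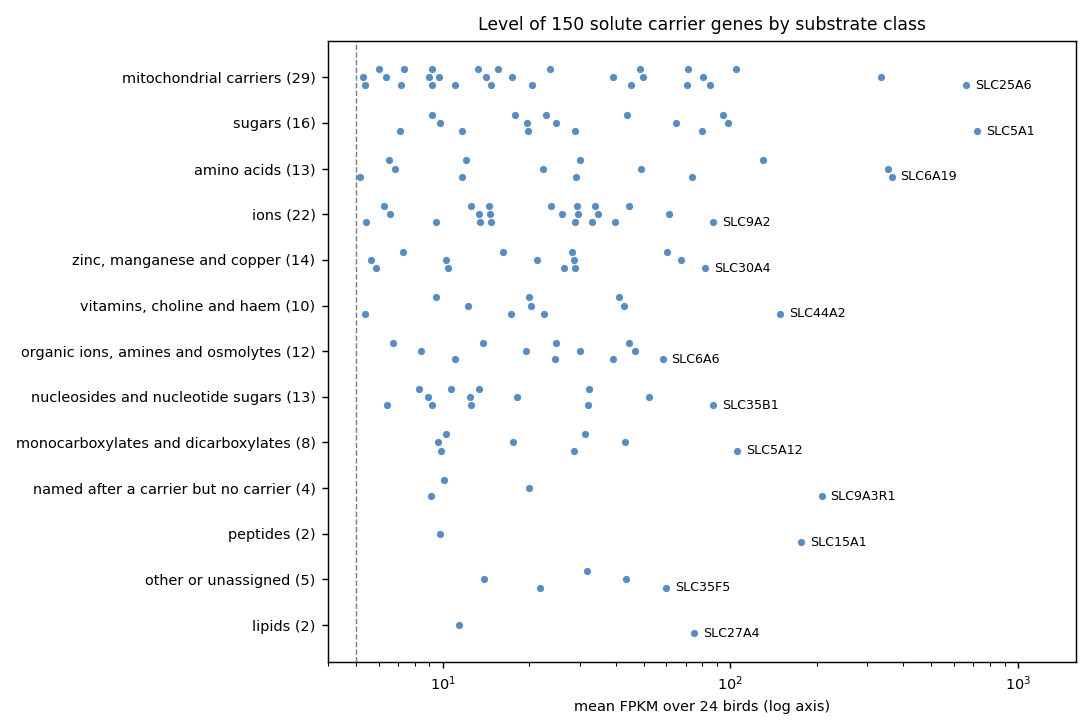
Mean FPKM over 24 birds (log axis) of each of the 150 members, 1 point per gene, in rows by substrate class with the number of members in parentheses and the highest member of each class named; the dashed line is the limit of 5 FPKM. SLC5A1 at 722 FPKM and SLC25A6 at 663 FPKM stand furthest to the right, and most classes hold 1 to 3 members far above the rest.

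All substrate classes were assigned by gene symbol, so the substrate of each member is not established here. By class, 29 mitochondrial carriers and their relatives made up 25.4% of the member FPKM, 16 sugar carriers 18.04%, 13 amino acid carriers 15.5% and 22 carriers of inorganic ions 8.25%. The 14 carriers of zinc, manganese and copper held 5.65%, the 10 of vitamins, choline and haem 4.82%, the 12 of organic ions, amines and osmolytes 4.64%, and the 13 of nucleosides and nucleotide sugars 4.30%. The 8 carriers of monocarboxylates and dicarboxylates held 3.63%, 2 peptide carriers 2.63%, 5 carriers of other or unassigned substrates 2.42% and 2 lipid carriers 1.22%. Another 4 members carry an SLC symbol but are no carriers, among them SLC9A3R1, a scaffold protein of the brush border at 208 FPKM, and together they held 3.498%. Of 32 symbols of textbook absorption transporters, 20 were members. SLC6A20 at 0.722 FPKM and SLC26A3 at 1.97 FPKM fell below the limit, and SLC1A1, SLC12A2 and SLC44A1 lay on the Z chromosome.

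The groups were compared gene by gene with limma on log2(FPKM + 0.1), a scale that understates the change of low genes, with Benjamini-Hochberg adjustment over all 17288 genes. No gene, member or not, reached an adjusted p under 0.05 with a log2 fold change over 0.5 in either direction in any of the 6 comparisons, so the percentage of genes called was 0 in each. limma-voom on the recovered reads also called 0 members. The study, with DESeq2 at the same stated limits, reported differential genes in SP against CTL, SPH against SP and SPM against SP birds. Its list of abundant differential genes held members such as SLC3A1, SLC5A11 and SLC2A5. That list prints p-values without saying whether they were adjusted. The 0 found here thus differs from its result, and the reason was not tested. The counts that follow are therefore of members at an unadjusted p under 0.05. In the limma fit on log2(FPKM + 0.1) of all birds they are set beside the percentage of all tested genes at the same limit. Comparisons that share SP or CTL birds are not independent of each other.

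In SPM against SP birds, 13 members were higher and 14 lower at that limit, that is 8.67% and 9.33% of the 150, where 6.67% of all genes were higher and 8.73% lower. Both shares lay near the background, and among the 9800 genes at 5 FPKM or more, 18.5% reached the limit in either direction against 18% of the members. Regardless of p, 107 of 150 members (71.3%) had a positive log2 fold change, beside 51.9% of all genes and 48.8% of those 9800. The member median was 0.10 against 0.01 over all genes tested. Scaled to TPM, which sets each library to the same total, 7 members were higher and 17 lower at the limit. Of the 150 members, 92 had a positive fold change under that scaling, and the member median was 0.05. The shares of all genes under TPM scaling are not given. Whether these TPM values lie above or below their background therefore cannot be told. In SPH against SP birds, 8 members were higher and 8 lower, in all 10.7% of the members beside 8.83% of all genes (3.21% higher and 5.62% lower). The member median was 0.05, and 64.7% of the members had a positive fold change beside 51.6% of all genes and 49.0% of the 9800. In SP against CTL birds, 2 members were higher and 0 lower, in all 1.33% of the members beside 6.18% of all genes (2.87% higher and 3.31% lower). The member median was -0.02, and 43.3% of the members had a positive fold change beside 48.8% of all genes and 53.6% of the 9800. In SPM against SPH birds, 5 were higher and 2 lower, in all 4.67% of the members beside 4.58% of all genes (2.24% higher and 2.33% lower). Under TPM scaling 4 were higher and 5 lower, and under quantile normalization 5 higher and 4 lower. In SPM against CTL birds, 8 were higher and 5 lower, in all 8.67% of the members beside 5.08% of all genes (2.46% higher and 2.62% lower). Under quantile normalization 4 were higher and 6 lower, and under TPM scaling 3 higher and 6 lower. In SPH against CTL birds, 1 was higher and 3 lower, in all 2.67% of the members beside 3.64% of all genes (1.84% higher and 1.8% lower). Without SP 5, the count of SPM against SP fell to 14 members in all and without SP 2 it was 39. Without SP 5 or without SPH 2, the count of SPH against SP was 9, and without CTL 1 that of SP against CTL was 8. Without SPH 1 the count of SPM against SPH was 2 and without SPM 2 it was 12, and without SPM 4 that of SPM against CTL was 7. For SPH against CTL the count was 2 without CTL 2 or without SPH 2, and 7 without SPH 5. Counts under TPM scaling, under quantile normalization or with a bird left out have no share of all genes beside them. The shares of all genes printed above belong to the fit without these changes and are not their background.

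**Figure D2:**
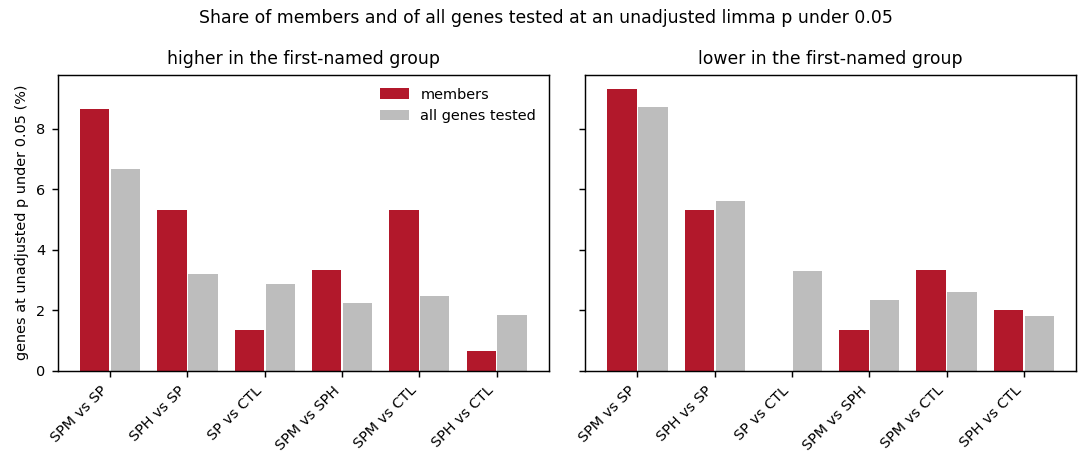
Percentage of the 150 members (red) and of the 17288 genes tested (grey) at an unadjusted limma p under 0.05 in each of the 6 comparisons, higher in the first-named group at left and lower at right. In SPM against SP birds 8.67% of the members were higher and 9.33% lower, beside 6.67% and 8.73% of all genes.

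Among the sugar carriers, SLC5A1 (chromosome 15, 9054070 to 9080058, minus strand, in the coordinates of the deposited table) was the highest of the class in every bird. Its lowest, median and highest values were 675, 778 and 1023 FPKM in SPM birds, 565, 674 and 908 FPKM in SPH birds, 397, 622 and 942 FPKM in SP birds, and 575, 681 and 901 FPKM in CTL birds. The groups overlapped, with a log2 fold change of 0.31 ± 0.17 (SE) in SPM against SP birds at an unadjusted limma p of 0.0859. SLC2A2, the basolateral glucose carrier GLUT2, averaged 112 ± 33.1 FPKM in SPM, 104 ± 39.7 in SPH, 91.3 ± 44.2 in SP and 84.2 ± 17.5 FPKM in CTL birds (SD, n = 6 each), within the spread between birds.

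SLC5A11, a sodium-coupled carrier that takes myo-inositol in mammals, was the sugar-class member with the smallest p in both comparisons of a supplement with SP birds. Its values ran at a lowest, median and highest of 79.7, 93.6 and 138 FPKM in SPM birds, 63.8, 116 and 158 FPKM in SPH birds, 53.6, 69.3 and 89.5 FPKM in SP birds, and 78.7, 86.8 and 117 FPKM in CTL birds. All 6 SPM birds and 5 of 6 SPH birds were above the SP median, though the ranges overlapped. The log2 fold change was 0.51 ± 0.18 (SE) in SPM against SP birds, with a limma adjusted p of 0.194 and an exact permutation p of 0.0152. In SPH against SP birds it was 0.62 ± 0.18, with a limma adjusted p of 0.379 and an exact permutation p of 0.0238. The exact tests compare mean log2(FPKM + 0.1), also where FPKM means are printed beside them. They are two-sided over the 924 regroupings of 12 birds, and 0.00216 is the smallest p they can give. Their p-values are not adjusted for the number of members or comparisons. Many members were named for a small limma p in the same birds, so an exact p adds no independent evidence. SLC2A5, the fructose carrier GLUT5, had 46.7, 89.1 and 160 FPKM as lowest, median and highest in SPM birds, 52.5, 89.1 and 110 in SPH birds, 23.5, 61.2 and 100 in SP birds, and 61.6, 76.6 and 100 FPKM in CTL birds. The SP birds held the lowest value, and the log2 fold change of 0.65 in SPM against SP birds had an exact permutation p of 0.104.

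SLC37A4, the glucose-6-phosphate carrier of the endoplasmic reticulum, was the member with the smallest p between the isomers. Its lowest, median and highest values were 21.5, 28.8 and 37.5 FPKM in SPM birds, 16.1, 20.6 and 24.5 in SPH birds, 16.6, 21.9 and 36.9 in SP birds, and 18.7, 24.9 and 37.2 FPKM in CTL birds. All 6 SPM birds were above the SPH median. The log2 fold change of SPM against SPH was 0.50 (95% interval 0.12 to 0.88), with a limma adjusted p of 0.996 and an exact permutation p of 0.0152. Of the lower sugar members, SLC37A2, another sugar-phosphate carrier, averaged 5.37 ± 1.395 FPKM in SPM birds and 9.36 ± 4.69 FPKM in SP birds, where SP 4 alone reached 18.2 FPKM. SLC5A9, a carrier of mannose and fructose in mammals, averaged 61.4 ± 15.2 FPKM in SPM, 68.2 ± 18.2 in SPH, 63.6 ± 23.1 in SP and 65.1 ± 18.7 FPKM in CTL birds, with no difference beyond the spread. SLC2A8, an intracellular glucose carrier, had the smallest spread of all members, with a coefficient of variation of 6.94% over the 24 birds. In this class 3 of 16 members were higher and 2 lower at the unadjusted limit in SPM against SP birds, or 31.2% beside 15.4% of all genes. In SP against CTL birds 12 of 16 had a negative fold change, none of them at the limit. A positive one was held by 25% of the class there, beside 43.3% of all members and 48.8% of all genes.

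The amino acid carriers held the members with the smallest p of the set. SLC3A1 and SLC7A9 form the heterodimer that takes up cystine and basic amino acids at the brush border, SLC3A1 (chromosome 3, 25588912 to 25603301) as its heavy chain and SLC7A9 (chromosome 11, 9941798 to 9954055) as the subunit that transports. SLC3A1 had 135, 173 and 182 FPKM as lowest, median and highest in SPM birds, 106, 124 and 175 FPKM in SPH birds, 86.0, 100 and 158 FPKM in SP birds, and 92.6, 110 and 126 FPKM in CTL birds. Every SPM bird was above every CTL bird and above the SP median, while SP 2 and SP 3, at 146 and 158 FPKM, reached into the SPM range. This gave a log2 fold change of 0.55 ± 0.14 (SE) in SPM against SP birds, with a limma adjusted p of 0.124 and an exact permutation p of 0.0130. In SPM against CTL birds it was 0.57, with a limma adjusted p of 0.902 and an exact permutation p of 0.00216, and 0.60 in the birds with W transcripts alone. In SPM against SPH birds it was 0.35 (95% interval 0.05 to 0.65), with a limma adjusted p of 0.996 and an exact permutation p of 0.0433.

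SLC7A9 had 329, 414 and 535 FPKM as lowest, median and highest in SPM birds, 276, 361 and 598 FPKM in SPH birds, 220, 286 and 410 FPKM in SP birds, and 226, 306 and 395 FPKM in CTL birds. All 6 SPM birds were above the SP and the CTL medians, with overlap in both cases. The log2 fold change was 0.50 in SPM against SP birds, with a limma adjusted p of 0.207 and an exact permutation p of 0.0325. Over the 24 birds the log2 levels of SLC3A1 and SLC7A9 had a Pearson r of 0.74 and a Spearman rho of 0.75, and r was 0.63 after centring each group on its mean. These are descriptions with no test, since the pair was chosen after its values were seen and its points share the library of each bird. SLC6A19 (chromosome 2, 85691001 to 85711341), the main carrier of neutral amino acids at the brush border, ran at 230, 441 and 638 FPKM in SPM birds, 245, 316 and 482 FPKM in SPH birds, 253, 359 and 556 FPKM in SP birds, and 223, 303 and 379 FPKM in CTL birds as lowest, median and highest. It overlapped between all groups, with an exact permutation p of 0.0736 in SPM against CTL birds.

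**Figure D3:**
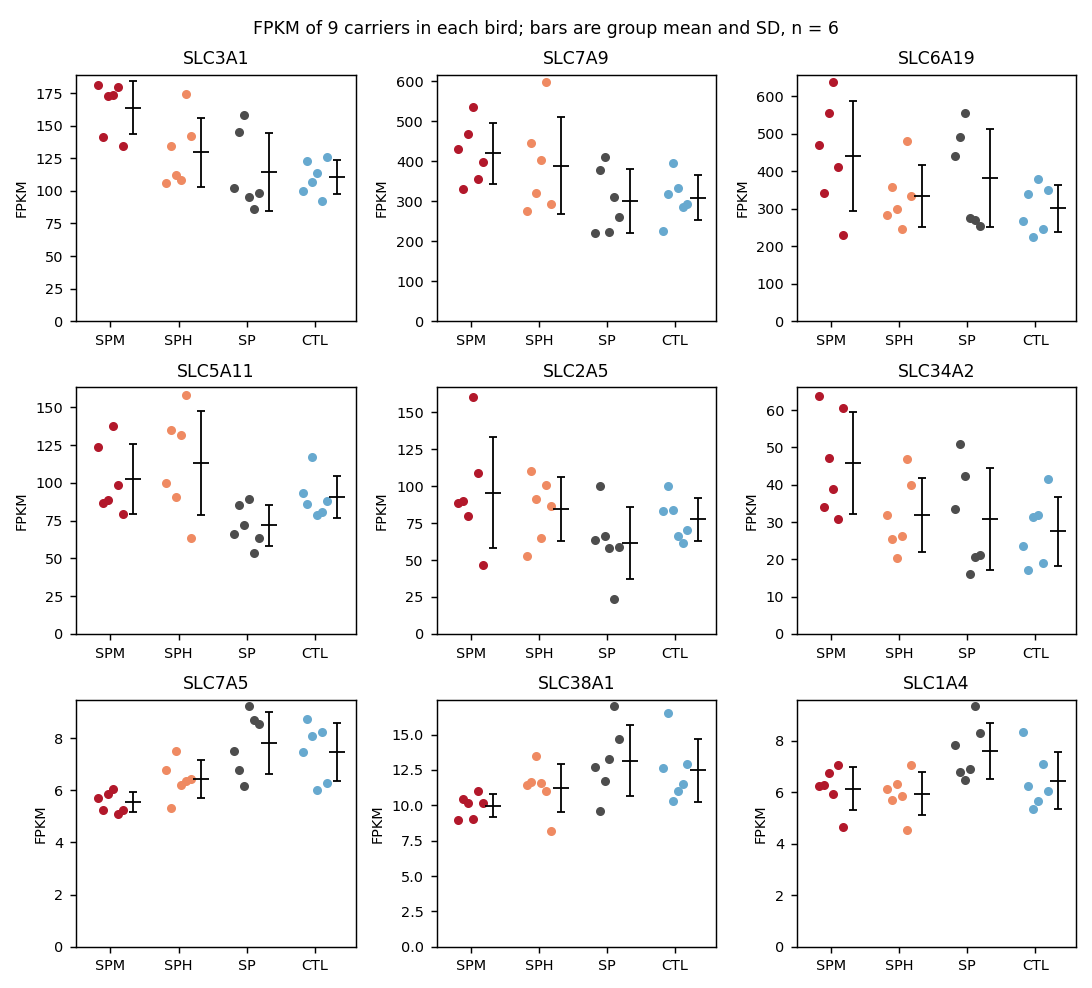
FPKM of 9 carriers in each bird, with groups in the order SPM, SPH, SP, CTL, 1 point per bird and bars at the group mean with its SD (n = 6). SLC3A1 stands at 135 to 182 FPKM in SPM birds, above all CTL birds at 92.6 to 126 FPKM, and SLC7A5 at 5.09 to 6.07 FPKM in SPM birds, below all SP birds at 6.16 to 9.24 FPKM.

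The 3 amino acid carriers that were lower at the unadjusted limit in SPM against SP birds were SLC7A5, SLC38A1 and SLC1A4. SLC7A5 (chromosome 11, 17954812 to 17987235) carries large neutral amino acids such as leucine, and is known in mammals from dividing cells and activated lymphocytes. Its values were 5.09, 5.49 and 6.07 FPKM as lowest, median and highest in SPM birds, 5.33, 6.40 and 7.52 in SPH birds, 6.16, 8.02 and 9.24 in SP birds, and 6.01, 7.76 and 8.73 FPKM in CTL birds. No SPM bird overlapped an SP bird, where 1 SPM bird at 6.07 FPKM passed the lowest CTL bird. This gave a log2 fold change of -0.48 ± 0.11 (SE) in SPM against SP birds, with a limma adjusted p of 0.105, the smallest of any member in any comparison, and an exact permutation p of 0.00216. In SPM against CTL birds it was -0.41, with an exact permutation p of 0.00433, and in SPH against SP birds -0.27, with an exact permutation p of 0.0519.

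SLC38A1, a sodium-coupled glutamine carrier, averaged 9.97 ± 0.80 FPKM in SPM birds, 11.2 ± 1.71 in SPH birds, 13.2 ± 2.53 in SP birds and 12.5 ± 2.21 FPKM in CTL birds. On the log2 scale the fold change in SPM against SP birds was -0.38, with a limma adjusted p of 0.172 and an exact permutation p of 0.0130. SLC38A2, its neighbour on chromosome 1 at a gap of 23966 bases, averaged 30.5 ± 9.99 FPKM in SPM and 29.0 ± 2.61 FPKM in SP birds, within the spread. SLC1A4, which exchanges alanine, serine and cysteine, averaged 6.14 ± 0.84 FPKM in SPM birds, 5.93 ± 0.83 in SPH birds, 7.61 ± 1.09 in SP birds and 6.45 ± 1.09 FPKM in CTL birds. Its log2 fold change in SPH against SP birds was -0.35, with a limma adjusted p of 0.397 and an exact permutation p of 0.0108. Between SPM and SP birds, 2 of the 13 amino acid carriers were thus higher and 3 lower at the unadjusted limit, or 38.5% of the class beside 15.4% of all genes, and the class median was 0.02, or -0.03 under TPM scaling. SLC36A1, a proton-coupled carrier of small amino acids, averaged 30.3 ± 3.44 FPKM in SPM, 28.1 ± 6.15 in SPH, 28.4 ± 8.44 in SP and 29.2 ± 5.57 FPKM in CTL birds, within the spread.

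Markers of lymphocytes and of dividing cells also moved in SPM against SP birds. All 9 tested T cell markers were lower in SPM than in SP birds, each at an unadjusted limma p under 0.05, and their summed level had a median of 245 FPKM (161 to 294) in SPM birds, 217 (192 to 311) in SPH birds, 322 (276 to 402) in SP birds and 216 FPKM (181 to 375) in CTL birds. All 10 B cell and plasma cell markers were lower in SPM than in SP birds, 8 of them at that limit, with summed medians of 142 FPKM (89.0 to 177) in SPM, 102 (78.0 to 340) in SPH, 203 (103 to 634) in SP and 235 FPKM (148 to 345) in CTL birds. In SPH against SP birds all 9 T cell markers were again lower at the limit, as were 6 of the 10 of B and plasma cells. All 9 markers of dividing cells were lower in SPM than in SP birds at that limit, with summed medians of 172 FPKM (135 to 214) in SPM, 233 (186 to 298) in SPH, 272 (180 to 301) in SP and 225 FPKM (175 to 262) in CTL birds. In SPH against SP birds all 9 were lower but 0 at the limit, and in SP against CTL birds all 9 were higher, 1 at the limit. The B cell gene TNFRSF13C was at 0 in at least 1 bird, and a pair of CD8A copies lay under the filter. Enterocyte markers went the other way in SPM against SP birds, with 11 of 14 higher, 2 of them at the limit, and a median of 0.23. In SPH against SP birds 9 of 14 were higher, with 1 higher and 1 lower at the limit. Smooth muscle markers were higher in all 11 cases in SPM against SP birds, 3 at the limit, and in all 11 in SPH against SP birds, 1 at the limit. In SP against CTL birds all 9 T cell markers were higher, 8 of them at the limit, and all 11 smooth muscle markers lower, 6 of them at the limit. Of the 10 B cell and plasma cell markers 9 were higher in SP than in CTL birds, 2 at the limit, with a median log2 fold change of 0.98. Their summed level had a lower median in SP than in CTL birds, and JCHAIN, at a mean of 158 FPKM, weighs most on that sum. The part of these shifts in the carrier differences was not tested.

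Some values moved when the fit was restricted to birds with W transcripts. In these birds alone (4 SPM, 3 SP), SLC3A1 had a log2 fold change of 0.83 and SLC7A5 of -0.68, with limma adjusted p of 0.0407 and 0.0408, and SLC37A2 had -1.22 with 0.0465, while 0.700% of all genes were called. SLC3A1 and SLC7A5 were also called without SP 2, at limma adjusted p of 0.0399 and 0.0368, in a fit that called 0.839% of all genes. Over all 25 settings the limma adjusted p ranged between 0.0399 and 0.258 for SLC3A1, between 0.0368 and 0.258 for SLC7A5 and between 0.0465 and 0.422 for SLC37A2. A test of the difference between birds with and without W transcripts gave no member an adjusted limma p under 0.291 in SPM against SP birds or under 0.151 in SPH against SP birds. At an unadjusted p under 0.05 it held 18 of the 150 members in SPM against SP birds, beside 8.76% of all genes, and 29 of the 150 in SPH against SP birds, beside 12.9%. In SPH against SP birds with W transcripts alone the log2 fold change was 1.07 for SLC5A11, 0.76 for SLC22A4, -0.60 for SLC1A4 and -0.56 for SLC7A5, and in SPM against SP birds it was 1.34 for SLC34A2. In SPM against SPH birds with W transcripts alone SLC5A11 had -0.55, at an unadjusted limma p of 0.00827, against -0.11 over all birds of these groups.

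SLC15A1, the proton-coupled peptide carrier PEPT1 of the brush border, had 101, 179 and 332 FPKM as lowest, median and highest in SPM birds, 93.8, 175 and 259 FPKM in SPH birds, 76.8, 141 and 204 FPKM in SP birds, and 110, 186 and 319 FPKM in CTL birds. The SP birds held the lowest value and the lowest median, but the groups overlapped widely. The log2 fold change was 0.44 ± 0.30 (SE) in SPM against SP birds and -0.41 ± 0.30 in SP against CTL birds, neither at the unadjusted limit. SLC15A4, the peptide and histidine carrier of endolysosomes, stayed between 8.25 and 13.3 FPKM in all 24 birds.

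Among the carriers of inorganic ions, SLC9A2, a sodium-proton exchanger, was highest at 87.1 FPKM, followed by SLC26A6, an exchanger of chloride, bicarbonate and oxalate, at 61.2 FPKM, and SLC13A1, a sodium-coupled sulfate carrier, at 44.3 FPKM. SLC34A2, the sodium-phosphate cotransporter of the intestinal brush border, had 30.9, 43.1 and 63.7 FPKM as lowest, median and highest in SPM birds, 20.3, 29.1 and 46.8 in SPH birds, 16.1, 27.4 and 50.8 in SP birds, and 17.2, 27.5 and 41.6 FPKM in CTL birds. All 6 SPM birds were above the median of each of the SP and CTL groups. This gave a log2 fold change of 0.75 in SPM against CTL birds, with a limma adjusted p of 0.931 and an exact permutation p of 0.0260, and 0.64 in SPM against SP birds, with an exact permutation p of 0.0758. SLC20A1, a phosphate carrier of most tissues, averaged 27.3 ± 5.22 FPKM in SPM and 29.9 ± 3.63 FPKM in SP birds. SLC4A4, the basolateral sodium-bicarbonate cotransporter, averaged 42.5 ± 12.3 FPKM in SPM and 36.7 ± 6.66 FPKM in SP birds.

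SLC13A1 averaged 55.1 ± 13.7 FPKM in SPM and 37.7 ± 9.79 FPKM in CTL birds, with a limma adjusted p of 0.931 and an exact permutation p of 0.0498. Its log2 fold change against CTL birds was 0.54 in SPM, 0.10 in SPH and 0.19 in SP birds. SLC26A5, known as prestin from the hair cells of the mammalian ear, averaged 12.9 ± 2.31 FPKM in SPM birds, 13.3 ± 1.44 in SPH birds, 16.1 ± 3.18 in SP birds and 16.7 ± 2.77 FPKM in CTL birds. Its exact permutation p was 0.0216 in SPM against CTL and 0.0173 in SPH against CTL birds, both with lower values in the supplemented birds. No gene passed the adjusted limit in either comparison. In SPM against SP birds the class had 15 of 22 members (68.2%) with a positive fold change, beside 71.3% of all members and 51.9% of all genes. Its median was 0.12, and 2 members were higher and 2 lower at the unadjusted limit, or 18.2% beside 15.4% of all genes.

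Metal carriers had a median coefficient of variation of 13.5%, and single ones reached 35.5%. The median was 17.3% over all members and 14.8% over the 9800 genes at 5 FPKM or more. SLC30A4, a zinc exporter, led at 82.0 FPKM, followed by SLC30A10, a manganese exporter in mammals, at 67.3 FPKM and SLC31A1, the copper importer CTR1, at 60.5 FPKM. SLC30A1, the zinc exporter of the plasma membrane, stood at 28.7 FPKM. SLC39A14, which imports zinc, manganese and iron in mammals, averaged 28.5 ± 3.97 FPKM in SPM birds, 31.2 ± 3.32 in SPH birds, 24.7 ± 4.63 in SP birds and 28.4 ± 5.20 FPKM in CTL birds. All 6 SPH birds were above the SP median, with a limma adjusted p of 0.436 and an exact permutation p of 0.0173, and without SP 5 the unadjusted limma p was 0.0530. It was the only 1 of 14 metal carriers at the unadjusted limit in SPH against SP birds, 7.14% of the class beside 8.83% of all genes.

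Nucleotide sugar carriers supply the Golgi apparatus and the endoplasmic reticulum. The class of nucleosides and nucleotide sugars, like the other classes, was assigned by gene symbol, so the substrate of each member is not established here. Highest in it were SLC35B1 at 87.0 FPKM, SLC35A2, the carrier of UDP-galactose, at 52.3 FPKM and SLC35D1 at 32.3 FPKM. SLC29A1, the equilibrative nucleoside carrier ENT1, was low at 8.91 FPKM and ranged only between 7.09 and 11.9 FPKM over the 24 birds. Between SPM and SP birds, 10 of 13 members of this class (76.9%) had a positive fold change, beside 71.3% of all members and 51.9% of all genes. The class median was 0.10. In SP against CTL birds the count was 3 of 13 (23.1%), beside 43.3% and 48.8%, with a median of -0.04. SLC35A5, of the same family, was the only 1 at the unadjusted limit in SPM against SP birds, 7.69% of the class beside 15.4% of all genes. It averaged 14.2 ± 2.17 FPKM in SPM birds and 11.8 ± 1.41 FPKM in SP birds.

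Carriers of monocarboxylates and dicarboxylates differed most between birds, with a median coefficient of variation of 48.5% against 17.3% over all members and 14.8% over the 9800 genes at 5 FPKM or more. Of the 7 members with a coefficient over 50%, a level that 2.77% of those 9800 genes passed, 4 belonged to this class: SLC5A12, SLC5A8, SLC16A4 and SLC13A2. SLC5A12 and SLC5A8 are sodium-coupled carriers of lactate and short-chain fatty acids. SLC5A12 (chromosome 5, 3630870 to 3646132) had the largest spread of all members at 163.6%. Its values in birds 1 to 6 were 118, 12.1, 34.5, 118, 165 and 739 FPKM in SPM birds and 10.6, 43.8, 4.52, 123, 46.2 and 3.29 FPKM in SPH birds. They were 537, 67.3, 32.3, 22.4, 115 and 24.1 FPKM in SP birds and 3.90, 123, 86.7, 79.0, 19.3 and 13.0 FPKM in CTL birds. High and low birds occurred in every group. The means were 198 ± 271 FPKM in SPM and 38.6 ± 45.7 FPKM in SPH birds, and the log2 levels of these groups had an exact permutation p of 0.0866.

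SLC5A8 (chromosome 1, 47613048 to 47636250) was often low where SLC5A12 was high. Its values in birds 1 to 6 were 14.7, 42.5, 16.3, 5.11, 2.31 and 1.497 FPKM in SPM birds and 2.29, 7.44, 12.7, 0.57, 5.12 and 9.30 FPKM in SPH birds. They were 1.09, 1.64, 3.41, 20.9, 12.0 and 16.0 FPKM in SP birds and 14.1, 3.39, 4.51, 4.53, 20.3 and 10.2 FPKM in CTL birds. The 2 birds with the highest SLC5A12, SPM 6 and SP 1, had 1.497 and 1.09 FPKM of SLC5A8. Over the 24 birds their log2 levels had a Pearson r of -0.60 and a Spearman rho of -0.60, with r at -0.58 without the 2 birds farthest from the SLC5A12 median and -0.76 after centring each group. SLC35F2, a member with no assigned substrate class, went with SLC5A12 at a Pearson r of 0.72, and SLC13A2, a citrate and succinate carrier, went against it at -0.50. These values are descriptions of pairs chosen after the levels were seen, with no test. On the first principal component of the members' log2 levels, which held 33.7% of their variance, SLC5A12 had the largest weight at -0.69 and SLC5A8 the largest of the opposite sign at 0.39. The levels were centred but not scaled, so members with the widest spread weigh most, and the weights restate the spread and correlation given above.

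SLC16A4, a member of the monocarboxylate family, had 1 bird far above the rest in each of the SPM, SP and CTL groups, and 4 such birds among the 6 SPH birds. Its values in birds 1 to 6 were 7.92, 10.02, 3.49, 6.41, 23.6 and 5.07 FPKM in SPM birds and 24.1, 2.91, 24.9, 6.35, 18.1 and 35.2 FPKM in SPH birds. They were 5.75, 2.20, 3.18, 18.1, 3.05 and 4.48 FPKM in SP birds and 2.52, 2.90, 4.48, 2.46, 17.1 and 2.68 FPKM in CTL birds. No bird lay between 10.02 and 17.1 FPKM, and 4 SPH birds, 1 SPM bird, 1 SP bird and 1 CTL bird were above that gap. The log2 fold change was 1.56 ± 0.60 (SE) in SPH against SP birds, with a limma adjusted p of 0.450 and an exact permutation p of 0.0541, and it was 0.14 in the birds with W transcripts alone. In SPH against CTL birds it was 1.79, with an exact permutation p of 0.0260, and 0.80 in the birds with W transcripts alone.

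**Figure D4:**
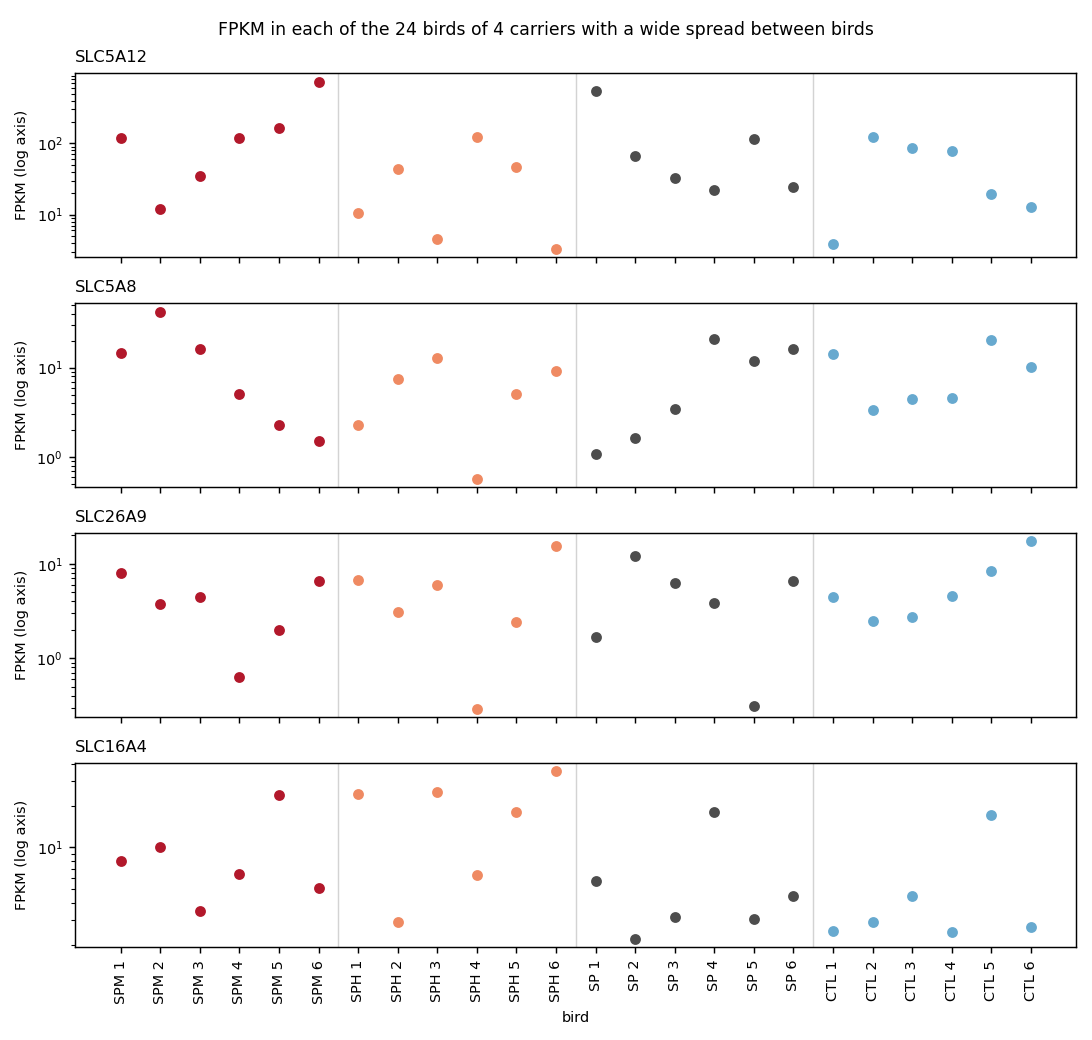
FPKM (log axis) of SLC5A12, SLC5A8, SLC26A9 and SLC16A4 in each of the 24 birds, with birds 1 to 6 of SPM, SPH, SP and CTL from left to right. SLC5A12 spans 3.29 to 739 FPKM with high and low birds in every group, and 7 birds stand at 17.1 FPKM or more of SLC16A4.

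The other carriers of this class spread less. SLC16A1, the lactate and butyrate carrier MCT1, averaged 14.3 ± 2.13 FPKM in SPM birds, 19.3 ± 5.01 in SPH birds, 19.2 ± 4.13 in SP birds and 17.4 ± 5.62 FPKM in CTL birds. Its log2 fold change was -0.41 in SPM against SP birds, with an exact permutation p of 0.0260, and -0.40 (95% interval -0.78 to -0.02) in SPM against SPH birds, with an exact permutation p of 0.0368. SLC16A5, of the same family, averaged 36.8 ± 13.0 FPKM in SPM and 21.7 ± 6.63 FPKM in CTL birds, with a limma adjusted p of 0.931 and an exact permutation p of 0.0433. Its log2 fold change against CTL birds was 0.74 in SPM, 0.49 in SPH and 0.33 in SP birds, so all challenged groups were higher.

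Vitamin and choline carriers were led by SLC44A2, a choline transporter-like protein, at 149 FPKM. SLC23A1, the sodium-coupled carrier of vitamin C, had 33.8, 52.1 and 82.2 FPKM as lowest, median and highest in SPM birds, 26.8, 43.5 and 54.2 in SPH birds, 26.0, 35.1 and 43.9 in SP birds, and 27.0, 34.7 and 66.1 FPKM in CTL birds. Of the SPM birds 5 were above the SP median, and the log2 fold change was 0.55, with a limma adjusted p of 0.227 and an exact permutation p of 0.0303. Without SPM 6 the log2 fold change was 0.41, at an unadjusted limma p of 0.0627. SLC19A1, the reduced folate carrier, averaged 47.3 ± 12.4 FPKM in SPM and 37.0 ± 3.22 FPKM in SP birds, with an exact permutation p of 0.0887. SLC46A1, the proton-coupled folate carrier, averaged 22.8 ± 5.25 FPKM in SPM and 18.8 ± 5.83 FPKM in SP birds, and SLC5A6, the carrier of biotin and pantothenate, had a mean of 17.2 FPKM over all birds. In SPM against SP birds 9 of 10 members of the class had a positive fold change, beside 71.3% of all members and 51.9% of all genes. The class median was 0.23, with 2 members higher at the unadjusted limit (20% of the class beside 15.4% of all genes). Under TPM scaling 7 of 10 were positive, with no share of all genes under that scaling beside it. The summed level of the class averaged 377 ± 48.1 FPKM in SPM, 348 ± 25.0 in SPH, 313 ± 42.6 in SP and 323 ± 34.1 FPKM in CTL birds.

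The most abundant mitochondrial carriers had close means in the 4 groups. SLC25A6 averaged 705 ± 105 FPKM in SPM, 642 ± 63.9 in SPH, 656 ± 92.6 in SP and 649 ± 77.0 FPKM in CTL birds, and SLC25A3, the phosphate carrier, 339 ± 39.2, 341 ± 44.3, 331 ± 30.0 and 323 ± 37.5 FPKM in the same groups. SLC25A5, another ADP/ATP carrier, stood at 105 FPKM, and its close similarity to SLC25A6 means that reads may be split between them. SLC25A48 and SLC25A25 were the only members at the unadjusted limit in SP against CTL birds. SLC25A48 had 16.0, 23.97 and 44.2 FPKM as lowest, median and highest in SP birds and 12.0, 16.4 and 20.4 FPKM in CTL birds. This gave a log2 fold change of 0.64 with a limma adjusted p of 0.767 and an exact permutation p of 0.0281, and in SPM against SP birds it was -0.54 with an exact permutation p of 0.0952. Without SP 3 the first of these was 0.47, at an unadjusted limma p of 0.0609. SLC25A25, an exchanger of ATP-magnesium and phosphate, averaged 10.2 ± 1.59 FPKM in SP and 8.67 ± 0.83 FPKM in CTL birds, with an exact permutation p of 0.0433. It kept the unadjusted limit in 5 of 12 fits with 1 bird left out, and its log2 fold change of 0.23 was 0.12 in birds with W transcripts alone. It averaged 8.51 ± 1.17 FPKM in SPM and 8.49 ± 0.90 FPKM in SPH birds.

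SLC25A14 was among the 3 members with the smallest spread over the 24 birds. It averaged 8.51 ± 0.63 FPKM in SPM birds, 9.52 ± 0.50 in SPH birds, 9.70 ± 0.87 in SP birds and 9.13 ± 0.47 FPKM in CTL birds. On the log2 scale the fold change was -0.18 in SPM against SP birds, with a limma adjusted p of 0.204 and an exact permutation p of 0.0108, and -0.16 in SPM against SPH birds, with an exact permutation p of 0.00866. SLC25A43, which lies 985 bases from SLC25A5 on chromosome 4, averaged 4.90 ± 0.34 FPKM in SPH and 6.03 ± 0.95 FPKM in SP birds, with an exact permutation p of 0.0325. Of the 29 members 21 (72.4%) had a positive fold change in SPM against SP birds, beside 71.3% of all members and 51.9% of all genes. At the unadjusted limit 5 of 6 were lower (20.7% of the class at the limit, beside 15.4% of all genes). Under TPM scaling 18 of 29 were positive, with no share of all genes under that scaling beside it. SLC25A32, a folate and FAD carrier, averaged 6.41 ± 0.71 FPKM in SPM and 7.91 ± 1.29 FPKM in CTL birds. Its log2 fold change against CTL birds was -0.29 in SPM, -0.09 in SPH and -0.05 in SP birds.

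Carriers of organic ions, amines and osmolytes were led by SLC6A6, the taurine carrier, at 58.2 FPKM. SLC17A5, the sialic acid exporter of lysosomes, averaged 51.9 ± 9.51 FPKM in SPM and 41.1 ± 5.36 FPKM in SP birds, with an exact permutation p of 0.0455, and without SP 5, its lowest SP bird at 30.2 FPKM, the unadjusted limma p was 0.0751. SLC18A1, the vesicular monoamine carrier of enterochromaffin cells, had all 6 SPH birds above the SP median, at 12.5 ± 1.86 FPKM in SPH and 9.55 ± 1.38 FPKM in SP birds. Its log2 fold change was 0.39, with a limma adjusted p of 0.382 and an exact permutation p of 0.0152. Markers of enteroendocrine cells, the lineage that holds enterochromaffin cells, had 5 of 9 higher in the same comparison, with 1 higher and 1 lower at the limit. SLC22A4, a carrier of ergothioneine, averaged 22.0 ± 5.01 FPKM in SPH and 16.4 ± 3.48 FPKM in SP birds, with an exact permutation p of 0.0779. SLC22A5, the carnitine carrier, lies 3971 bases from it on chromosome 13, and their means were 39.1 FPKM for SLC22A5 and 19.5 FPKM for SLC22A4. Between SPM and SP birds, 11 of 12 members of the class had a positive fold change, with a median of 0.19, beside 71.3% of all members and 51.9% of all genes. In SPH against SP birds it was 10 of 12, with a median of 0.20, beside 64.7% and 51.6%. At the unadjusted limit were 1 (8.33% of the class) and 2 (16.7%), all higher, beside 15.4% and 8.83% of all genes.

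The lipid class held SLC27A4, a fatty acid carrier with acyl-CoA synthetase activity, at 74.8 FPKM, and SLC10A7 at 11.4 FPKM, a relative of the bile acid carriers. SLC10A7 averaged 10.7 ± 0.89 FPKM in SPM birds, 11.1 ± 0.21 in SPH birds, 11.5 ± 0.68 in SP birds and 12.4 ± 0.86 FPKM in CTL birds. Its log2 fold change was -0.22 in SPM against CTL birds, with a limma adjusted p of 0.902 and an exact permutation p of 0.00649. In SPH against CTL birds it was -0.16, with an exact permutation p of 0.00433, and no gene passed the adjusted limit there either. The groups overlapped in both cases, with every supplemented bird below the CTL median. SLC7A6OS, named for its place beside SLC7A6 on the opposite strand and no carrier, had 9.73 to 10.3 FPKM in SP birds, above every SPH bird at 8.17 to 9.36 FPKM. Without a statement on strand in the counting, reads of such a gene and its antisense partner cannot be told apart.

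**Figure D5:**
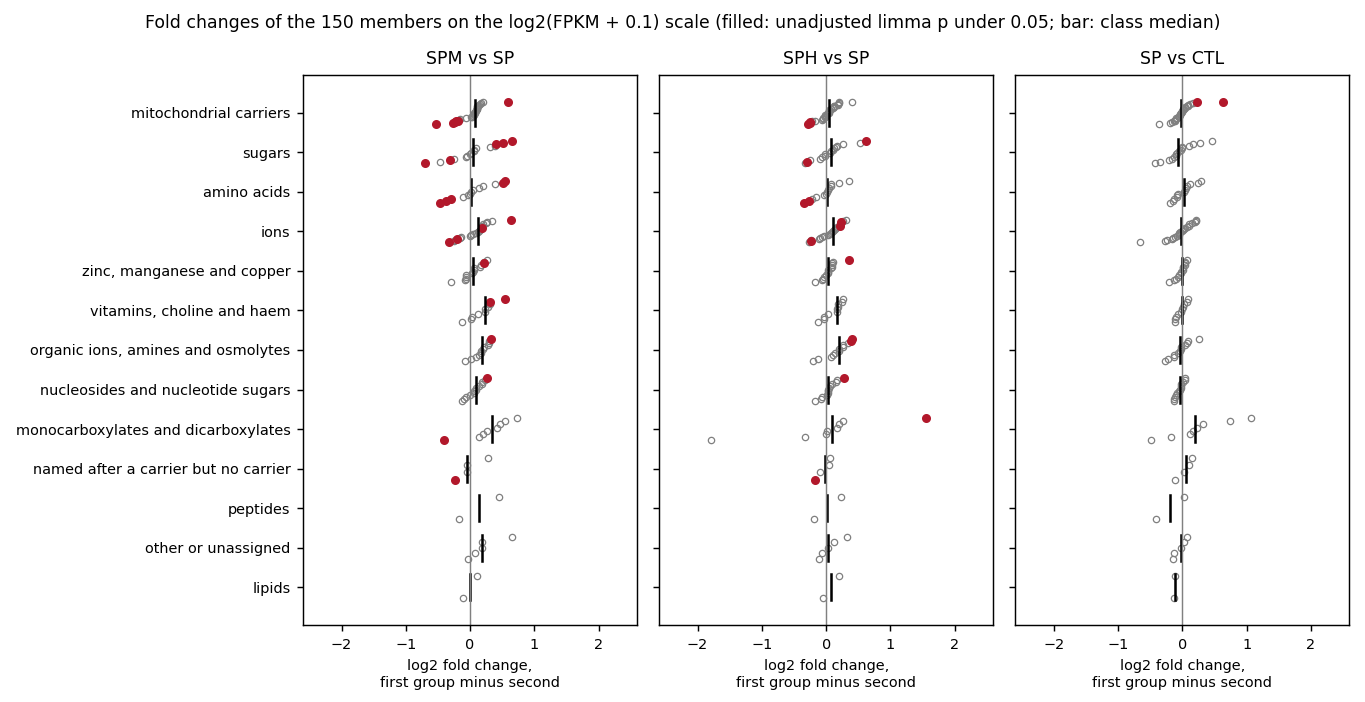
Log2 fold change on the log2(FPKM + 0.1) scale of each of the 150 members, 1 point per gene, by substrate class, for SPM against SP, SPH against SP and SP against CTL birds; filled points have an unadjusted limma p under 0.05 and black bars are class medians. In SPM against SP birds the member median is 0.10, with the vitamin class at 0.23 and the carboxylate class at 0.34.

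Between the isomers at the same dose and age, 7 members were at the unadjusted limit, that is 4.67% of the members beside 4.58% of all genes. The median half-width of the 95% interval of SPM against SPH was 0.28 on the log2 scale over the 150 members, and 109 of them had an interval that lay wholly within 0.5 in either direction. The largest difference was that of SLC5A12, at 2.34 (95% interval 0.18 to 4.51), which was 1.24 in birds with W transcripts alone, and SLC16A4 had -0.84 (-2.08 to 0.41). For the main absorptive carriers the log2 differences of SPM against SPH birds were 0.19 (95% interval -0.17 to 0.55) for SLC5A1, 0.36 (-0.12 to 0.85) for SLC6A19 and 0.22 (-0.40 to 0.84) for SLC15A1. These intervals reach beyond 0.5 on the upper side. At the unadjusted limit were SLC37A4, SLC3A1, SLC35G1, SLC5A12 and SLC25A17, higher in SPM birds, and SLC25A14 and SLC16A1, lower in SPM birds, all with limma adjusted p of 0.996. SLC37A4 kept its unadjusted limit in 12 of 12 fits with 1 bird left out, SLC25A14 in 10, SLC3A1 in 9, SLC35G1 in 8, and SLC5A12, SLC25A17 and SLC16A1 in 5 each. All 9 markers of dividing cells were lower in SPM than in SPH birds, 6 of them at the limit, and their part in these differences was not tested. Only this pair of compounds was compared, with adjustment over all genes.

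Genes of intestinal absorption, the hydrolases, pump subunits, scaffolds and regulators that work with the carriers, were set beside them. The list of 23 includes SLC9A3R1, which is also a member, with a log2 fold change of -0.04 in SPM against SP birds. Of 23 tested, 20 had a positive fold change in SPM against SP birds, 8 of them at the unadjusted limit and 0 lower at it, with a median of 0.27. Of all genes tested, 51.9% had a positive fold change and 6.67% were higher at the limit in that comparison. Among the 8 were the peptidases MEP1A, with a log2 fold change of 1.00, and ENPEP, with 0.39, the fructose kinase KHK, with 0.74, and the epithelial transcription factor CDX2, with 0.39. The list shares VIL1, ANPEP and CDX2 with the enterocyte markers. ANPEP and CDX2 were the 2 enterocyte markers at the limit and are counted again among the 8. MEP1A, MEP1B, KHK and LCT also stand in the study's own list of differential genes from these birds, so the counts are not independent of that list. In SPH against SP birds 21 were positive and 2 at the limit, KHK with 0.76 and CDX2 with 0.38, beside 3.21% of all genes higher at the limit, and the median was 0.14. In SP against CTL birds 9 were positive, and KHK was the only 1 at the limit, with -0.46. The 80 tested genes with SLC symbols below 5 FPKM had 3 higher and 6 lower at the limit in SPM against SP birds and a median of 0.01.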

How the data were processed

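Per the methods of the study, ileum RNA was sequenced on an Illumina instrument. The labels differ from these methods, since their protocol text speaks of retinas and another library kit and their source field of ileum flora. The authors deposited FPKM per gene in each of 24 birds with gene positions and lengths. The submitters' processing notes name Bowtie 0.12.2 and the builds GRCg6a and mm8 without saying what each was used for, and no source used here gives the counting settings. The authors tested with DESeq2. Since the deposited unit is FPKM, log2(FPKM + 0.1) of the 17288 genes with a mean of at least 0.1 FPKM was fitted in limma 3.58.1 (R 4.3.3; variance trend, 1 mean per group, all 24 birds), two-sided, with the limits of the study's methods (adjusted p 0.05, log2 fold change 0.5). Single members were also compared by exact two-sided permutation tests of mean log2(FPKM + 0.1) over 12 birds, with no adjustment. FPKM times gene length fell on whole reads within 0.001 for all 440917 values above 0, which gave the depths and a limma-voom fit added after seeing the data.

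Members named are the 3 highest of each substrate class, up to 5 in each direction with the smallest unadjusted p per comparison, textbook transporters, the genes beside the limit of 5 FPKM, and those of extreme spread. SLC37A2, SLC35A5, SLC38A2, SLC22A5, SLC35F2, SLC26A9 and the pairs of carriers were named after their values were seen. The members, substrate classes and gene lists were chosen with earlier results of these data known, and 4 genes that are no carriers were set apart after the table was read. Some genes that the rule names are not reported here. A table of unannotated transcripts was not used, and 0 columns belonged to no sample of the series. Alternatives were another pseudocount or filter, 2 groups alone, the replicate block, other scalings, array weights, W status, and each bird left out.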

Additional observations from a re-analysis of the deposited data

Results flagged for a closer look

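In 48 named members, 192 groups of 6 birds were examined for a highest or lowest bird set apart from the others by Dixon's criterion, and 15 groups held one. Chance alone marks about 1 in 20 groups. No explanation was weighed.

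SLC5A12 had such a bird in 3 groups, with 739 FPKM in SPM 6, 123 FPKM in SPH 4 and 537 FPKM in SP 1, where the next birds of those groups had 165, 46.2 and 115 FPKM. SLC16A4 also had one in 3 groups, with 23.6 FPKM in SPM 5, 18.1 FPKM in SP 4 and 17.1 FPKM in CTL 5. SLC5A8 reached 42.5 FPKM in SPM 2, next to 16.3 FPKM in the following bird. SP 2 had the highest SLC37A4 of its group at 36.9 FPKM and the highest SLC4A4 at 49.2 FPKM. SP 5 had the lowest SLC17A5 at 30.2 FPKM, and SPM 6 the lowest SLC25A32 at 5.08 FPKM. CTL 1 had the highest SLC20A1 at 51.6 FPKM and the highest SLC7A6OS at 10.7 FPKM. SLC26A6 reached 99.3 FPKM in SPH 6, and SLC5A11 117 FPKM in CTL 3.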

How the results depend on the processing

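The counts of members at an unadjusted p under 0.05 were 27 in SPM against SP, 16 in SPH against SP, 2 in SP against CTL, 7 in SPM against SPH, 13 in SPM against CTL and 4 in SPH against CTL birds. They stayed within 1.5 times of these under other pseudocounts and filters and under quantile normalization. In birds with W transcripts alone they were 45, 31, 11 (SP against CTL) and 11 (SPH against CTL). In these birds 3 members were called at the adjusted limits in SPM against SP, beside 0.700% of all genes. With W status as a covariate the counts were 5 for SP against CTL and 2 for SPH against CTL. Array weights gave 5, 11, 8 and 20 for SP against CTL, SPM against SPH, SPH against CTL and SPM against CTL. TPM scaling gave 1 for SP against CTL, and limma-voom 1 there and 11 for SPM against SPH. Leaving out 1 bird at a time gave 14 to 39 for SPM against SP, 9 to 20 for SPH against SP, 1 to 8 for SP against CTL, 2 to 12 for SPM against SPH, 7 to 18 for SPM against CTL and 2 to 7 for SPH against CTL. At the adjusted limits it gave 0 to 2 members in SPM against SP birds, and without SP 2 0.839% of all genes were called. With the replicate block the unadjusted counts were 23, 15, 3, 5, 12 and 4 in the order of the first sentence. Shares of all genes at the unadjusted limit under these alternatives are not given, so these counts have no background beside them. The 36 correlations of same-numbered birds ran from -0.20 to 0.24, with 1 over 0.1. With no reference beside them, these values cannot show whether birds of the same number shared a batch. The cause of the shifts in the counts was not tested. For 43 named pairings of a member and a comparison, 516 fits left out 1 bird each, of which 77 lost the unadjusted limit without a change of sign. Low members rest on few reads, down to 18 in a bird.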
